A study of Homo sapiens with 6 samples.

Results

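The mitochondrial ribosomal protein genes were taken from the deposited table as every gene symbol that starts with MRPL or MRPS followed by a digit and carries a protein-coding RefSeq name of its own. This gave 76 genes of 18974 protein-coding symbols, 47 named for the large subunit (MRPL) and 29 for the small subunit (MRPS). RNA-Seq was performed on 6 samples of PC-3, an established cell line from a bone metastasis of a human prostate adenocarcinoma. All samples carried the advanced reverse tetracycline transactivator from a pRetroX-Tet-On-Advanced retrovirus, selected with G418, and all received doxycycline (Dox) at 300 ng/ml for 4 hours. The 3 tdTom samples carried a second retrovirus, pRetroX-Tight-pPGK-tdTomato, and the 3 TTP-tdTom samples carried pRetroX-Tight-TTP-pPGK-tdTomato, so that Dox should induce tristetraprolin (TTP), an RNA-binding protein that delivers mRNAs to decay, in the latter group alone. Both are sorted populations of infected cells of 1 cell line, and the sources used here do not say whether the 3 samples of a group came from separate cultures. The comparison asks which mRNAs of the mitochondrial ribosome differed in level shortly after induction.

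Mitochondria keep a ribosome of their own, which descends from that of bacteria and translates the few mRNAs of mitochondrial DNA, all of them for subunits of the respiratory chain and ATP synthase. Its RNAs come from mitochondrial DNA, whereas all of its proteins are encoded in the nucleus, made in the cytosol and imported. Part of the proteins have a bacterial counterpart, and the rest are particular to mitochondria and form much of the outer surface of the particle. The names follow the subunit in which a protein was first placed, with a few known exceptions: MRPS30 and MRPS18A belong to the large subunit, and MRPS36 is a subunit of the 2-oxoglutarate dehydrogenase complex and not of the ribosome.

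Values were given by the authors as 1 FPKM per group and locus (fragments normalised for transcript length and for the number of mapped fragments). From these values no spread between replicates or error could be computed. The authors' own test columns were not used, no test was made here, and a difference below is a description of the pair of group values. FPKM hold no counts, and the number of fragments behind each value is unknown. ZFP36, the gene that encodes TTP, was at 5.56 FPKM in tdTom and 5.54 FPKM in TTP-tdTom, so that the table did not show the transgene at this locus, and the second group is called the group labelled TTP-tdTom. The counting of transgene reads, and TTP by other measures, were not analysed here. The epithelial genes KRT8, KRT18 and EPCAM were at 15.1 to 98.2 FPKM in both groups, whereas CDH1 was at most 0.39 FPKM. KLK3 and TMPRSS2, which mark prostate epithelium, lay between 0.68 and 2.53 FPKM, and PTPRC, CD3E and PECAM1, which mark blood and endothelial cells, were at most 0.79 FPKM. COL1A1 was at 4.34 and 4.56 FPKM, and COL3A1 at 2.46 FPKM in tdTom and listed at 0 in the group labelled TTP-tdTom. In bulk RNA, fewer cells with a transcript and less transcript per cell cannot be told apart.

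All 76 genes were detected in both groups, and each had a mean FPKM over the groups of at least 1, the minimum set for the comparison. Their log2 ratios, labelled TTP-tdTom over tdTom, had a median of -0.18, with a range from -1.54 for MRPL42 to 0.26 for MRPL46. Lower values in the group labelled TTP-tdTom were found for 66 of them (86.8%), against 80.9% of the 11604 protein-coding symbols with a mean FPKM of at least 1 and a value above 0 in both groups. Most of these differences were small. The groups lay within 1.1-fold of each other for 29 genes, between 1.1-fold and a log2 difference of 0.32 for 30, and between that and 1.5-fold for 9. A level lower by 1.5-fold or more was found for 8 of the 76 genes (10.5%), where the share over all protein-coding symbols was 22.9%. No member was higher by 1.5-fold or more, against 1.74% of all symbols.

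The zero of these ratios depends on how the groups are scaled. Over all protein-coding symbols the median log2 ratio was -0.24, below that of the mitochondrial ribosomal proteins. Centred on that median, which adds 0.24 to every value, 48 of the 76 genes lay above 0 and 28 below, and their median became 0.06. With both groups rescaled to the same FPKM sum over protein-coding symbols, a shift of 0.22, the median was 0.04. The order of the genes is the same under each of these scalings, and 3 of them (MRPL42, MRPL13 and MRPL50) were lower by 1.5-fold or more under all 3.

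**Figure D1:**
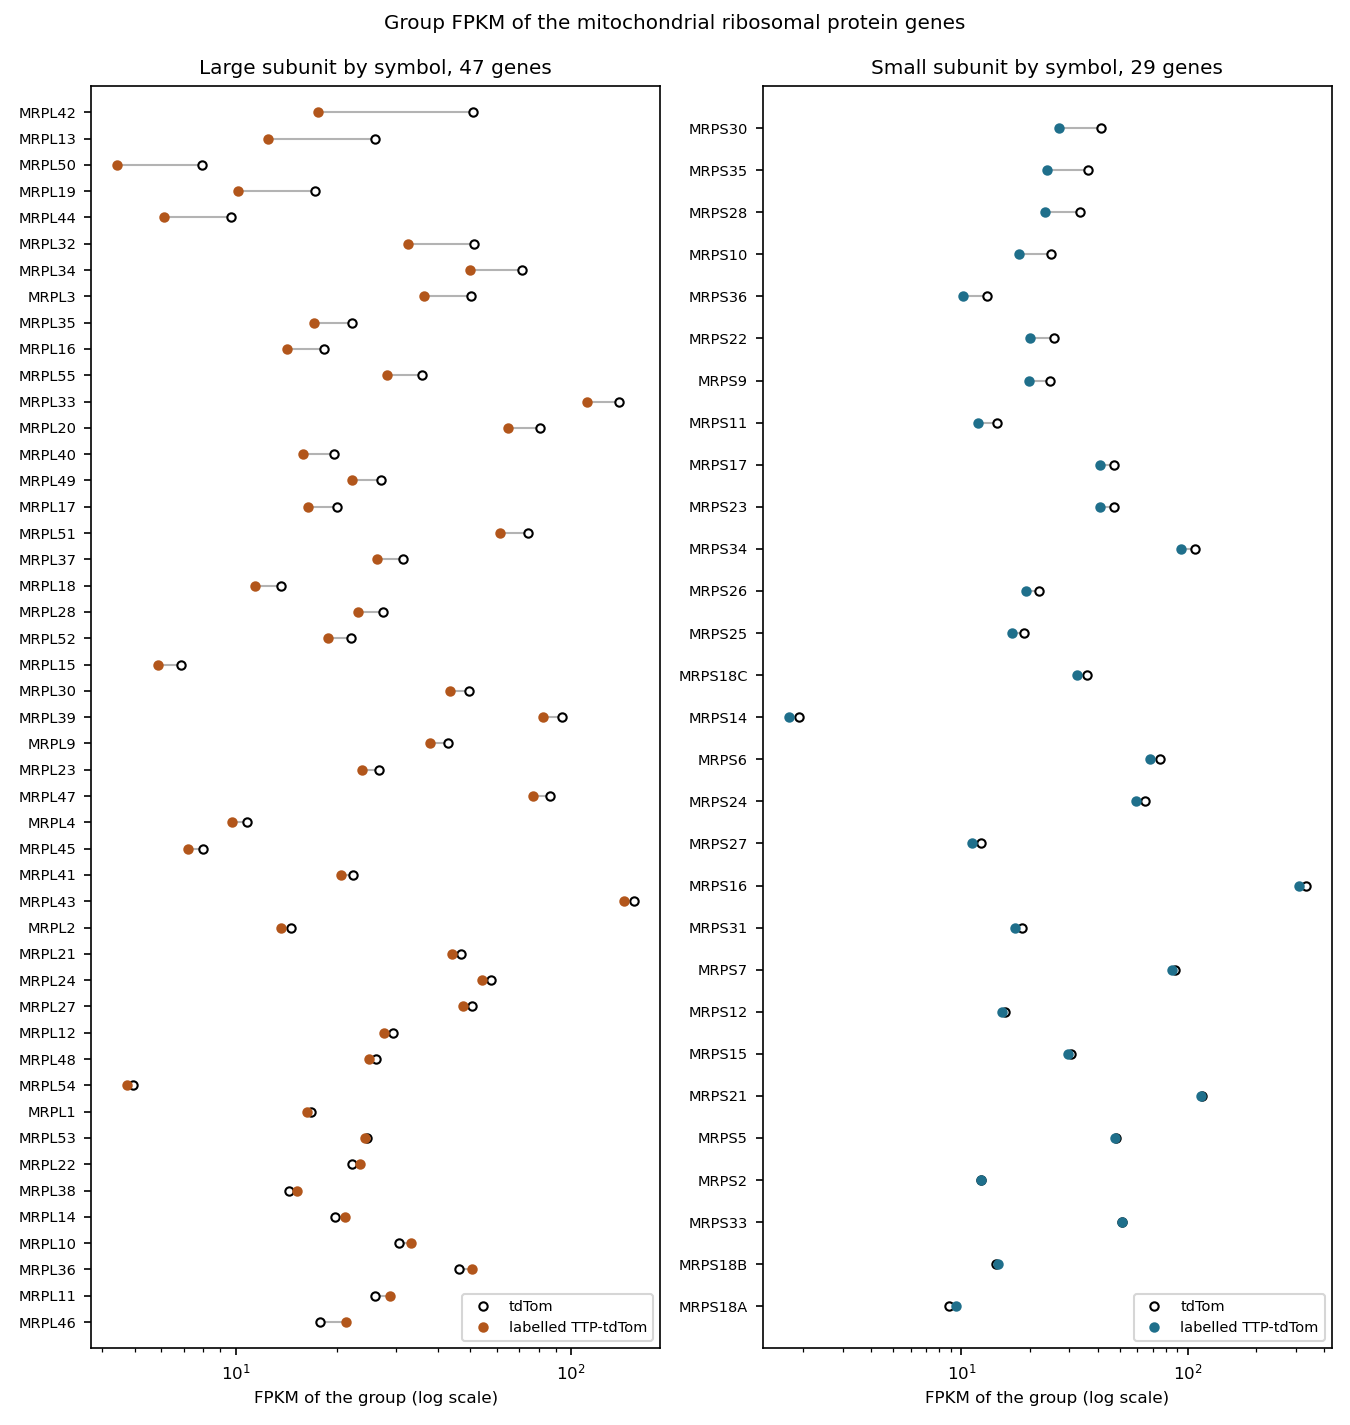
Group FPKM on a log axis for each of the 76 genes, those named for the large subunit on the left and for the small subunit on the right, with open circles for tdTom and filled circles for the group labelled TTP-tdTom (1 value per group, without error). Genes are ordered from the lowest log2 ratio at the top, MRPL42 and MRPS30, to the highest at the bottom, MRPL46 and MRPS18A, on the scale before centring.

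Grouped by symbol, the large subunit had a median log2 ratio of -0.18 over 47 genes, with 40 lower and 7 higher in the group labelled TTP-tdTom. For the small subunit the median was -0.15 over 29 genes, with 26 lower and 3 higher, and both medians turned positive after centring (0.06 and 0.09). The interquartile ranges overlapped widely, from -0.31 to -0.09 in the large and from -0.28 to -0.04 in the small subunit. Summed over its genes, the large subunit stood at 1768 FPKM in tdTom and 1504 FPKM in the group labelled TTP-tdTom, or 85.1% of the tdTom level. The sums of the small subunit were 1385 FPKM and 1245 FPKM, or 89.9%, but 1 locus that also holds other genes supplied much of this sum (MRPS16, below). Without rows shared with another gene, the sums stood at 84.8% for 44 genes of the large and 88.6% for 26 genes of the small subunit. Over all protein-coding symbols the sum in the group labelled TTP-tdTom was 85.9% of that in tdTom. With the groups rescaled to equal sums, shared rows included, the large subunit stood at 98.997% and the small subunit at 104.64%. Of the 8 genes lower by 1.5-fold or more, 6 were named for the large subunit and 2 for the small subunit, and of these 2 MRPS30 has its place in the large subunit.

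**Figure D2:**
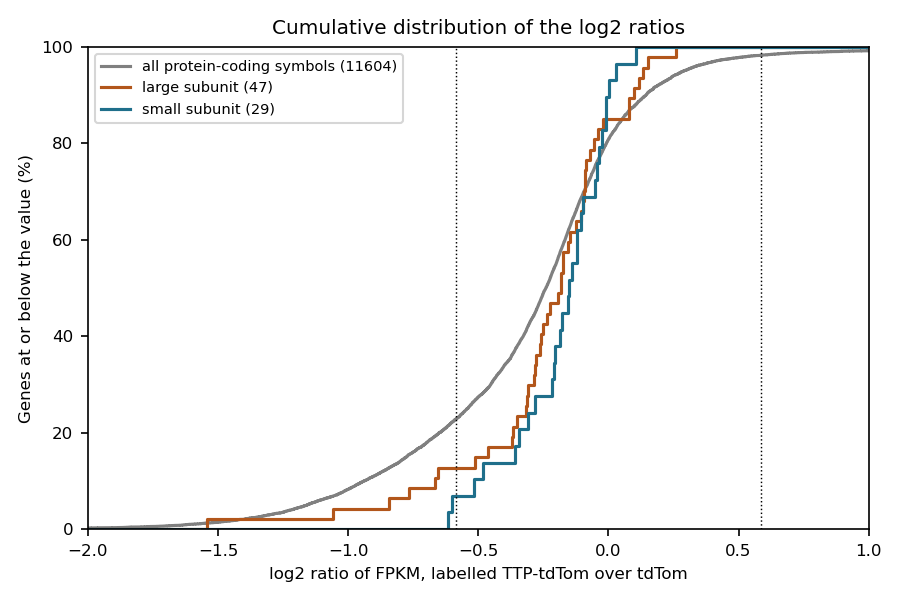
Cumulative share of genes at or below each log2 ratio for the large subunit, the small subunit and all 11604 protein-coding symbols, with dotted lines at 1.5-fold lower and higher. On the left side both subunits lie below the curve of all symbols over most of the range, with 12.8% of the large and 6.90% of the small subunit genes at least 1.5-fold lower against 22.9% of all symbols.

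MRPL42 had the largest difference of all members. Its product is a protein of the large subunit that is particular to mitochondria. The locus, on chromosome 12 of GRCh37 from 93861161 to 93900755, was at 51.1 FPKM in tdTom and 17.5 FPKM in the group labelled TTP-tdTom, a log2 ratio of -1.54 with 34.4% of the tdTom level left.

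MRPL13, a core protein of the large subunit with a bacterial counterpart, followed. On chromosome 8 from 121405731 to 121537868, its values were 26.0 FPKM in tdTom and 12.5 FPKM in the group labelled TTP-tdTom, with a log2 ratio of -1.06. The printed span also holds MTBP, in a row of its own, at 17.8 and 12.98 FPKM. MRPL42 and MRPL13 were the members lower by 2-fold or more, 2 of 76, where 8.26% of all symbols passed this fold.

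A further 4 genes named for the large subunit passed 1.5-fold. MRPL50, particular to mitochondria, lies on chromosome 9 from 104151405 to 104160919 and was at 7.95 FPKM in tdTom and 4.43 FPKM in the group labelled TTP-tdTom (log2 ratio -0.84). MRPL19, which has a bacterial counterpart, lies on chromosome 2 from 75873909 to 75889334 and was at 17.3 and 10.1 FPKM (log2 ratio -0.77). MRPL44, on the same chromosome from 224822121 to 224832431, was at 9.72 and 6.12 FPKM (log2 ratio -0.67). MRPL44 has a fold related to that of ribonuclease III and is needed for a stable large subunit. MRPL32, which is matured by the m-AAA protease of the inner membrane before it joins the large subunit, was at 51.3 FPKM in tdTom and 32.5 FPKM in the group labelled TTP-tdTom (log2 ratio -0.66). Its locus is on chromosome 7 from 42971939 to 42977513. Relative to the median gene, MRPL19, MRPL44 and MRPL32 were below the 1.5-fold limit no longer.

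Among the genes named for the small subunit, MRPS30 and MRPS35 passed 1.5-fold. MRPS30 sits in the large subunit in spite of its name. Its locus on chromosome 5, from 44809027 to 44815618, was at 41.5 FPKM in tdTom and 27.1 FPKM in the group labelled TTP-tdTom, a log2 ratio of -0.62. MRPS35, a protein of the small subunit that is particular to mitochondria, lies on chromosome 12 from 27862938 to 27910096 and was at 36.3 and 23.9 FPKM (log2 ratio -0.60). With a pseudocount of 1 its ratio was just short of 1.5-fold. Of the members just short of 1.5-fold, which is 0.585 on the log2 scale, MRPS28 was at 33.5 and 23.4 FPKM (log2 ratio -0.52). MRPL34, a small basic protein with a bacterial counterpart, was at 71.3 and 50.0 FPKM (log2 ratio -0.51). MRPS10 followed with 24.997 and 17.9 FPKM (log2 ratio -0.48), and MRPL3, which reaches toward the peptidyl transferase centre, with 50.2 and 36.4 FPKM (log2 ratio -0.46). No other member had a log2 ratio under -0.40.

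Values above the tdTom level were found for 10 members. MRPL46, a protein of the large subunit particular to mitochondria, was at 17.8 FPKM in tdTom and 21.3 FPKM in the group labelled TTP-tdTom, a log2 ratio of 0.26. MRPL46 and MRPS11 share a printed span on chromosome 15 from 89002709 to 89023204, in separate rows, and MRPS11 was at 14.3 FPKM in tdTom and 11.8 FPKM in the group labelled TTP-tdTom (log2 ratio -0.28). The pair thus differed in opposite directions, each by less than 0.32 on the log2 scale. MRPL11 and MRPL10, which form the base of the stalk where translation factors dock, were at 26.0 and 30.7 FPKM in tdTom and at 28.8 and 33.4 FPKM in the group labelled TTP-tdTom, with log2 ratios of 0.15 and 0.12. MRPL36, a small zinc-binding protein, was at 46.3 and 50.7 FPKM (log2 ratio 0.13). MRPL14, MRPL38 and MRPL22 lay between 0.08 and 0.10 on the log2 scale. Among the genes named for the small subunit, the highest ratio was 0.10 for MRPS18A, which sits in the large subunit, followed by 0.03 for MRPS18B and 0.00 for MRPS33.

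Several members with well known roles differed little. MRPL12, the protein of the flexible stalk that also binds the mitochondrial RNA polymerase, was at 29.5 FPKM in tdTom and 27.7 FPKM in the group labelled TTP-tdTom (log2 ratio -0.09). MRPS12, which lies at the decoding centre, was at 15.5 and 15.1 FPKM (log2 ratio -0.04). MRPS12 shares its printed span with SARS2, the mitochondrial seryl-tRNA synthetase, which was at 0.97 and 1.19 FPKM in its own row. MRPS2 and MRPS5, both with bacterial counterparts in the small subunit, were at 12.2 and 48.1 FPKM in tdTom and at 12.2 and 47.8 FPKM in the group labelled TTP-tdTom, with log2 ratios of -0.01 each. MRPS36, the member that is not a ribosomal protein, differed more than these, at 13.04 and 10.2 FPKM (log2 ratio -0.36).

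MRPS18A, MRPS18B and MRPS18C are paralogs that derive from a single bacterial protein, and each ribosome holds all of them at different sites. MRPS18C had the highest level, 36.1 FPKM in tdTom and 32.4 FPKM in the group labelled TTP-tdTom (log2 ratio -0.16). MRPS18B was at 14.2 and 14.5 FPKM, and MRPS18A at 8.77 and 9.43 FPKM. The order of their levels was the same in both groups.

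The levels themselves covered a wide range. On the FPKM scale, which corrects for transcript length, the mean over the groups ran from 1.82 for MRPS14 to 322 for MRPS16, with a median of 25.3. The lowest members after MRPS14 were MRPL54 at 4.95 FPKM in tdTom and 4.76 FPKM in the group labelled TTP-tdTom, MRPL50, and MRPL15 at 6.88 and 5.89 FPKM. MRPL43, with 154 and 144 FPKM, and MRPL33, with 139 and 112 FPKM, led the large subunit, followed by MRPL39 with 93.6 and 82.5 FPKM. In the small subunit MRPS16 was at 334 and 310 FPKM, MRPS21 at 116.0 and 114.0 FPKM and MRPS34 at 108 and 93.7 FPKM. The level and the log2 ratio were nearly unrelated among the members (Spearman's rho 0.04 across 76 genes, which are not independent replicates and share the same libraries). The value of MRPS16 is not its own, as the row also holds ANXA7, DNAJC9 and TTC18. The rows of MRPL2, MRPL28, MRPL53, MRPS6 and MRPS24 likewise hold a further gene. These 6 members had log2 ratios between -0.25 and -0.02, and none of the 8 genes past 1.5-fold was among them. A further 3 members, MRPL16, MRPL17 and MRPL55, stood in 2 rows, and the smaller row was at most 3.92 FPKM in either group.

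Members with a bacterial counterpart had a median log2 ratio of -0.16 over 48 genes, and 3 of them (6.25%) were at least 1.5-fold lower. Members particular to mitochondria had a median of -0.19 over 27 genes, and 5 of them (18.5%) were at least 1.5-fold lower. Both shares were under the 22.9% of all symbols. The genes lie on 21 chromosomes, with at most 8 on any of them, and the 8 genes past 1.5-fold lie on 6 chromosomes.

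Transcripts bound by TTP typically carry AU-rich elements in the 3′UTR, with the heptamer UAUUUAU at their core. The 3′UTRs were taken from the transcripts of GENCODE release 29 that are paired with a RefSeq name of the row, the longest where there were several. All 76 members had such a transcript, as had 96.6% of the 11604 symbols. The 3′UTRs of the mitochondrial ribosomal proteins were short, with a median of 388 bases against 1195 bases over all symbols. Those of cytosolic ribosomal proteins and of complex I subunits, described below, were shorter still, with medians of 176 and 183 bases. The heptamer was found in 9 of the 76 members (11.8%), against 34.6% of all symbols. Members with it were MRPL17, MRPL19, MRPL22, MRPL33, MRPL35, MRPL42, MRPL50, MRPS10 and MRPS33. The sites of 5 members are shown, 3 past 1.5-fold and 2 that were slightly higher, in RNA letters with 10 bases on either side and the heptamer in capitals.
MRPL42 site 1: cuuauauguaUAUUUAUgcauauacau
MRPL42 site 2: guuccaauucUAUUUAUugaaauuuaa
MRPL50 site: auuaggucauUAUUUAUgaaaaguuuu
MRPL19 site 1: ugugggucuaUAUUUAUccauuguauu
MRPL19 site 2: uuucuuucugUAUUUAUuuuuuguugu
MRPS33 site 1: agugcgauagUAUUUAUuggaguaugu
MRPS33 site 2: aacaucuuauUAUUUAUguaauuaugg
MRPS33 site 3: auaaugcuugUAUUUAUaaaucauuuu
MRPL22 site: uguaaaugaaUAUUUAUaaggcuuugc

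The sites of MRPL42 begin at bases 5843 and 12478 of a 3′UTR of 14992 bases, those of MRPL19 at bases 1454 and 1853 of 2575, and that of MRPL50 at base 232 of 2833. Whether PC-3 cells use these full lengths was not analysed here. The 9 members with a heptamer had a median log2 ratio of -0.37 and the 67 without one a median of -0.16. All 9 had a transcript GC content under the median of all symbols, so this is also a split by base composition, and the part of each was not tested. MRPS33, with the most copies, was at 51.2 FPKM in tdTom and 51.3 FPKM in the group labelled TTP-tdTom. MRPL22, with 1 copy at base 136 of a 3′UTR of 2514 bases, was at 22.2 and 23.5 FPKM. In the same split, 3 of the 9 members with a heptamer (33.3%) were at least 1.5-fold lower. Of the 67 without one, 5 (7.46%) were. The share was 22.9% over all symbols and 39.0% over those with a transcript GC content under the median, where all 9 lie. Shares over all symbols with and without a heptamer were not computed here. The 5 genes past 1.5-fold that held no copy were MRPL13, MRPL44, MRPL32, MRPS30 and MRPS35. The 3′UTR of MRPL13 was 257 bases long and had no AUUUA pentamer either, while MRPS30 held 3 pentamers in 320 bases. A heptamer is a match of letters and no proof of binding.

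The members also differed in base composition. All 8 genes past 1.5-fold had a transcript GC content between 34.96% and 46.4%, under the median of 48.2% over all symbols. Of the 35 members under that median, 8 (22.9%) were at least 1.5-fold lower, while the share over all symbols under it was 39.0%. None of the 41 members at or above it were, against 6.89% of all symbols there. Median log2 ratios were -0.26 for the former and -0.10 for the latter members. Across the members the log2 ratio and the GC content had a Spearman's rho of 0.39 (76 genes), and across all symbols one of 0.49 (11205 genes). All of these points share the same libraries, so the part of base composition in the differences of single genes was not tested.

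**Figure D3:**
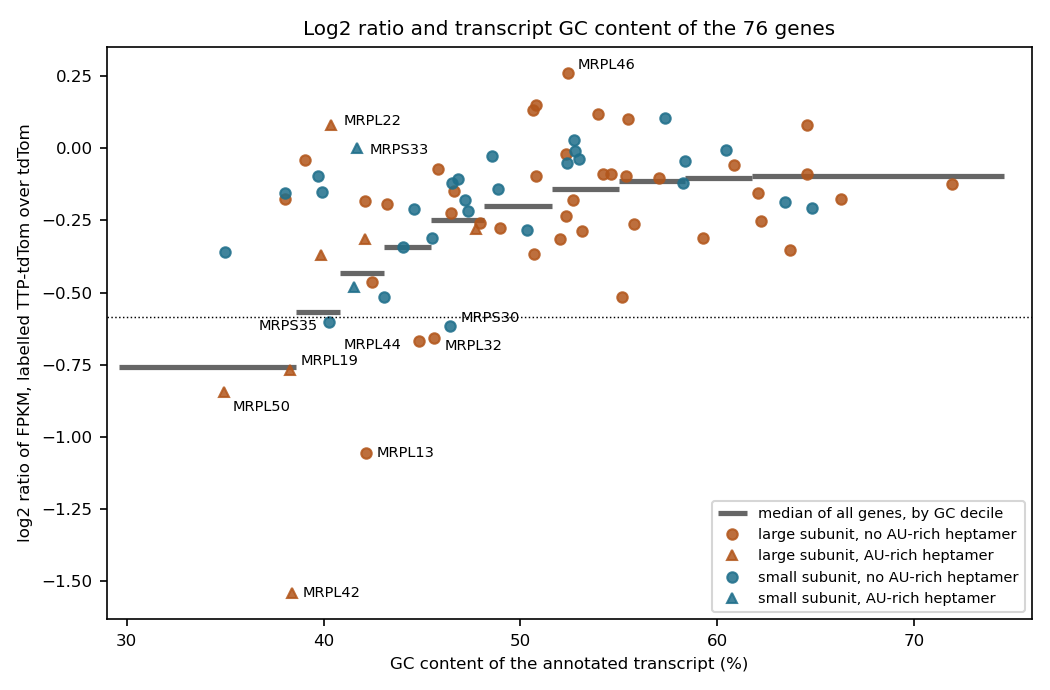
Log2 ratio of FPKM against the GC content of the annotated transcript for the 76 genes, with triangles for those whose 3′UTR holds the AU-rich heptamer, and bars for the median of all protein-coding symbols in each decile of GC content. The bars climb from -0.76 at the lowest GC content to -0.10 at the highest, and most members lie close to them or above, with MRPL42 and MRPL13 the farthest below.

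Set against the median of all symbols in their own decile of GC content, 43 members lay above and 33 below, with a median difference of 0.04 on the log2 scale. MRPL42 and MRPL13 were farthest below, with differences of -0.78 and -0.63. MRPL32, MRPL34, MRPS30 and MRPL44 were next, with -0.41 to -0.33. MRPL50 and MRPL19, in the decile of the lowest GC content, where 63.8% of all symbols were at least 1.5-fold lower, were within 0.10 of its median of -0.76. In that same decile MRPS18C and MRPL47, with log2 ratios of -0.16 and -0.17, lay 0.60 and 0.58 above the median. MRPL22 and MRPL1 lay 0.65 and 0.53 above that of the next decile.

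The promoters of 67 members, from 250 bases before to 50 bases after the start in RefSeq (GRCh38.p14), were searched on both strands for GGAAGT, a core bound by ETS factors including the nuclear respiratory factor 2. It was found in 20 of them (29.9%), against 27.9% of the promoters of 8654 expressed symbols and 23.2% of all 27305 promoters. The share in the members was thus close to that in expressed symbols.

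A few further proteins of the mitochondrial ribosome stand in the table under symbols that start with neither MRPL nor MRPS. DAP3, CHCHD1, PTCD3 and AURKAIP1 of the small subunit and GADD45GIP1 and ICT1 of the large subunit had a median log2 ratio of -0.18, the same as the members, and 0 of the 6 were past 1.5-fold, where 22.9% of all symbols were lower and 1.74% higher. AURKAIP1 was the lowest of them, at 144 FPKM in tdTom and 101 FPKM in the group labelled TTP-tdTom (log2 ratio -0.51). PTCD3, a pentatricopeptide repeat protein, was at 13.05 and 9.87 FPKM (log2 ratio -0.40). CHCHD1 was at 296 and 297 FPKM. MRP63, the older symbol of MRPL57, was at 23.2 and 20.2 FPKM (log2 ratio -0.20).

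Factors that work on the mitochondrial ribosome were described from lists chosen by role. The 11 genes listed as translation factors had a median log2 ratio of -0.24. Of these, 2 (18.2%) were at least 1.5-fold lower, near the 22.9% of all symbols, and 0 were higher. Both were elongation factors of the G type. GFM1, which moves the ribosome along the mRNA, was at 18.0 FPKM in tdTom and 9.18 FPKM in the group labelled TTP-tdTom (log2 ratio -0.97), and GFM2, which helps to split the subunits after termination, was at 11.99 and 7.29 FPKM (log2 ratio -0.72). Their transcripts had a GC content of 41.3% and 42.8%, in a decile where 35.95% of all symbols were at least 1.5-fold lower. TUFM, the factor that brings aminoacyl-tRNA to the ribosome and the most abundant of the list, was at 75.7 and 72.8 FPKM (log2 ratio -0.06). Initiation factor MTIF3 was at 49.3 and 51.2 FPKM (log2 ratio 0.05).

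A further list held 22 genes for ribosome assembly, rRNA modification, mitochondrial DNA transcription and the handling of its transcripts. Of these 22, 3 (13.6%) were at least 1.5-fold lower, against 22.9% of all symbols, and 0 were higher, against 1.74%. The median log2 ratio was -0.12. TFAM, which packages mitochondrial DNA and starts its transcription, was at 39.5 FPKM in tdTom and 18.4 FPKM in the group labelled TTP-tdTom (log2 ratio -1.10). TFB2M, its partner at the promoter, was at 6.99 and 3.75 FPKM (log2 ratio -0.90). POLRMT, the polymerase itself, was at 12.3 and 14.4 FPKM (log2 ratio 0.23). GTPBP10, a GTPase of large subunit assembly, was at 5.54 and 3.39 FPKM (log2 ratio -0.71). The transcripts of TFAM and GTPBP10, with a GC content of 38.4% and 35.5%, fall in the lowest decile, where 63.8% of all symbols were at least 1.5-fold lower, while those of TFB2M and POLRMT had 41.9% and 66.3%. TFB1M, which methylates the rRNA of the small subunit, was at 4.52 and 4.59 FPKM.

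**Figure D4:**
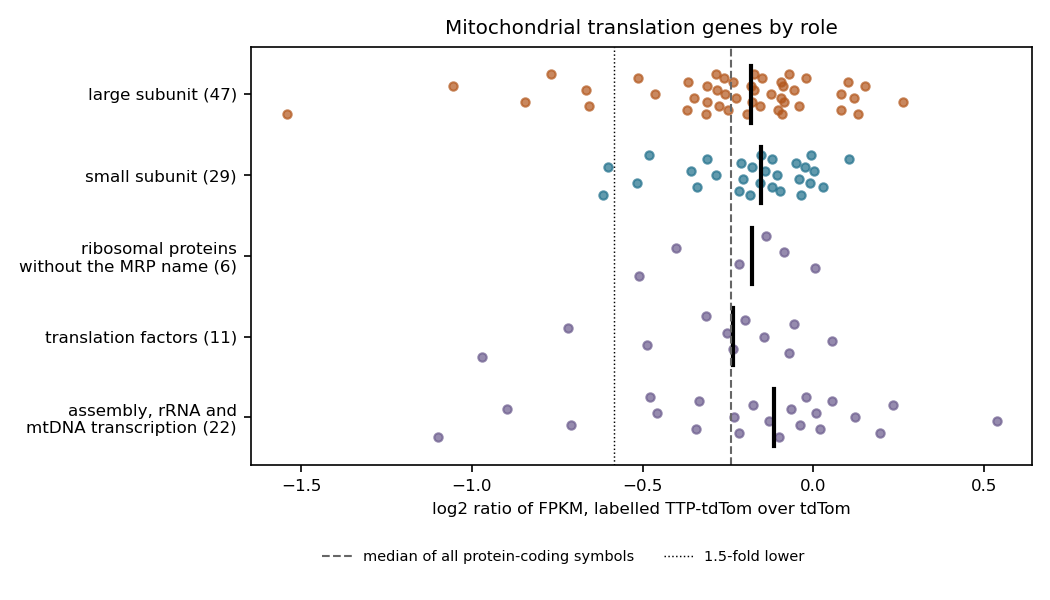
Log2 ratio of FPKM for the genes of the large and small subunit and the 6 ribosomal proteins without the MRP name. Also shown are the 11 genes listed as translation factors and the 22 listed under assembly, rRNA and mitochondrial DNA transcription. Each point is a gene, vertical bars are medians (-0.18, -0.15, -0.18, -0.24 and -0.12), the dashed line is the median of all protein-coding symbols (-0.24) and the dotted line marks 1.5-fold lower.

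The cytosolic ribosomal proteins and the subunits of respiratory complex I, part of which the mitochondrial ribosome makes, gave a frame for these values. Cytosolic ribosomal proteins had a median log2 ratio of -0.14 over 84 genes, with a range from -10.05 to 1.29. Of them, 3 (3.57%) were at least 1.5-fold lower and 1 (1.19%) higher, against 22.9% and 1.74% of all symbols. The complex I list was taken by symbol alone (NDUFA, NDUFB, NDUFC, NDUFS and NDUFV), without a check of the place of each product. Its 38 genes had a median of -0.18, with 3 (7.89%) at least 1.5-fold lower and 0 higher. The median of the mitochondrial ribosomal proteins, -0.18, was close to these and above the -0.24 of all symbols. Their share of genes at least 1.5-fold lower, 10.5%, was above that of both lists and under the 22.9% of all symbols. Their median level of 26.5 FPKM in tdTom was under the 460 FPKM of the cytosolic ribosomal proteins and the 53.4 FPKM of complex I, and above the 9.60 FPKM of all symbols.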

How the data were processed

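The 6 samples were sequenced by the authors from strand-specific RNA-Seq libraries. Per the submitters' processing notes and the methods, reads were aligned with TopHat2 2.0.13 to Hs37D5 (GRCh37 with decoy sequence), and Cufflinks 2.2.1 gave the transcript models and group levels. For each of 406165 assembled loci the authors deposited an FPKM value per group, made from the 3 samples together. Further columns with their comparison (fold change, test statistic, p and q) were not used. As no values per sample were analysed here, no replicate fit, test or interval was made, although each group had 3 samples.

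Symbols and RefSeq names were read as parallel lists. A symbol was represented by the row with most of its RefSeq names, then the highest summed FPKM, and MRPL45P2, whose own name is noncoding, was left out. Log2 ratios were computed without a pseudocount, and symbols needed a mean FPKM over the groups of at least 1. Starts were counted from 1. The members and lists were chosen with earlier results of these data known. Genes named are, per subunit, the 4 lowest and 4 highest ratios and the 3 highest and 3 lowest levels, every member past 1.5-fold, and members and factors listed by role; MRPL34, MRPL3, MRPL14, MRPL38, MRPL22, MRPS5, MRPL47, MRPL1 and the sharers of rows and spans were added after their values were seen. S6 kinases, RPS19BP1 and read-through symbols were dropped from the list of cytosolic ribosomal proteins. Sequences came from GENCODE release 29 and RefSeq by name. The ratio functions were tested on simulated data. Python 3.11.15, numpy 2.4.6, pandas 2.3.3 and matplotlib 3.10.9 were used.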

Additional observations from a re-analysis of the deposited data

How the results depend on the processing

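No paired analysis was possible because the deposited table holds 1 value per group, so neither a replicate block nor leaving out single replicates was run. The median log2 ratio of all members, -0.18, became 0.063 after centring on the median of protein-coding symbols and 0.041 after rescaling to the same FPKM sum. For the large subunit, -0.18, these settings gave 0.058 and 0.037, and for the small subunit, -0.15, they gave 0.087 and 0.066. By construction they add 0.24 and 0.22 to every ratio, and the number of members at least 1.5-fold lower, 8, dropped to 3 under each, with 13.2% and 13.9% of all symbols. It was 17 at a log2 limit of 0.32, where 40.6% of all symbols passed, and 2 at a fold of 2, where 8.26% did.

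The other settings moved the medians by less than 0.02. With a pseudocount of 1 the median was -0.17 for all members and -0.14 for the small subunit, and 7 members were at least 1.5-fold lower, against 18.8% of all symbols tested so, without MRPS35, the member of the small subunit by place among the 8. At a mean FPKM of at least 10, which leaves out MRPL50 and MRPL44, 6 of 69 were, against 24.0% of all symbols. The median was -0.16 for the small subunit at a mean FPKM of at least 10, -0.17 for all members with FPKM summed over the rows of a symbol, and, in settings chosen after seeing the data, -0.19 for the large and -0.17 for the small subunit without the members that share a row, and -0.16 for the small subunit with the 7 ribosomal proteins of other names. No setting put a member at least 1.5-fold higher. With the longest annotated 3′UTR of any transcript in place of the one paired with a RefSeq name, 10 members held the heptamer (13.2%), against 36.2% of all symbols.

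Depth limits what can be said of any single gene. The FPKM values used here hold no counts and 1 value per group, and the authors' test columns were not used. From these values neither the spread between the 3 samples nor counting error can be given, least of all for low members such as MRPS14, MRPL54 and MRPL50.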
